A study of Mus musculus with 8 samples.

Results

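Receptors for monoamines, adenosine and neuropeptides were examined in the prefrontal cortex (PFC) of mice without α-Gal A, the lysosomal enzyme whose loss causes Fabry disease. The group consisted of 55 genes, taken by gene name from a list of serotonin, dopamine, adrenergic, histamine, adenosine, opioid and peptide receptors that was built around Npsr1, the receptor of neuropeptide S. All 55 were represented on the array, with 79 probes, among 55681 probes other than controls. Tissue was taken from 8 male mice, 4 α-Gal A(-/0) and 4 wildtype, 20 to 24 weeks old and labelled C57BL/6J, with 1 mouse per one-color Agilent array. The α-Gal A(-/0) line carries a null mutation of α-Gal A, and the study's methods give its background as C57BL/6 without a substrain. Both genotypes were bred as separate inbred colonies, so that genotype and colony cannot be told apart.

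These receptors are G protein-coupled. Ligand binding at the cell surface activates Gs, Gi or Gq proteins, which raise cyclic AMP, lower it, or activate phospholipase C. In the prefrontal cortex they tune the firing and transmitter release of pyramidal cells and interneurons, and through them serotonin, dopamine, noradrenaline, adenosine and cortical peptides act on attention, arousal and stress responses. Neuropeptide S, made by a few brainstem cell groups, promotes wakefulness and dampens anxiety through Npsr1. Somatostatin, released by a class of cortical interneurons, acts through Sstr receptors, which couple to Gi.

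Each array probe is a 60-base oligonucleotide, and the sequences of the probes on which the results turn are shown because 2 probes of a gene can report different stretches of its transcripts. Positions follow the mm9 coordinates of the array's design, and all these probes lie on the plus strand except that of Oprm1. The Npsr1 probe lies at chr9:24120745-24120804, and its first 30 bases are given. Sstr1 has a probe at chr12:59314287-59314346, called the upstream probe here and printed whole, and another at chr12:59316670-59316729, called the downstream probe, of which the first 30 bases are given. The upstream sequence holds no stop codon in any of its 3 forward reading frames, whereas 0 frames of the downstream probe are free of stops. Adora2b has a probe at chr11:62078754-62078813 that is free of stops in 2 frames and is printed whole. All are in lower case, and no part of them is singled out. From a probe listed under Oprm1 at chr10:3308332-3308391, 30 bases are shown with its run of CA repeats in capitals.
Npsr1: gacaggtaaaaatttaggctgatcgggcaa
Sstr1 upstream: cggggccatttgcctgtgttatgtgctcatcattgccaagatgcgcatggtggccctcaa
Sstr1 downstream: aacctggggttcgcaagttcacactgacct
Adora2b: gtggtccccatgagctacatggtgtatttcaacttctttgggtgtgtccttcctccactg
Oprm1 repeat: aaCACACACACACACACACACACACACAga

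Levels are given as log2 signal, the log2 of the scanner's processed intensity after quantile normalization over the 8 arrays, so that a difference of 1 is a factor of 2. Differences are α-Gal A(-/0) minus wildtype throughout. Adjusted p-values are from limma adjusted by Benjamini-Hochberg over the whole set of 34341 tested probes. Tested were probes that exceeded the background clearly (by the scanner's flag) on every array of one genotype or of both. Between 29948 and 38243 probes per array were well above background, the lowest number being that of α-Gal A(-/0) replicate 2. The probe of Gla, which encodes α-Gal A, read 17.13 to 17.18 in the α-Gal A(-/0) mice and 17.01 to 17.17 in the wildtype mice (difference 0.06, SE 0.06, n = 4 per genotype, limma adjusted p = 0.707), and since the disrupted stretch of the gene relative to this probe is not given in the sources used here, it checks nothing about the labels. All 6 excitatory neuron markers listed for the cortex were tested, that is, well above background. Of 10 marker lists for cell types and regions, 1 microglia probe (Csf1r, lower) and 1 olfactory bulb probe (Cdhr1, higher by 1.73) passed the adjusted test, and 0 in the other 8 lists, which cover striatum, excitatory and inhibitory neurons, astrocytes, oligodendrocytes, endothelium, choroid plexus and thalamus. Eomes, Tbx21 and Doc2g, the rest of the olfactory bulb list, differed by 0.12, 0.08 and 0.08. The mean deviation of this list from the average of the 8 mice varied widely within genotypes. It was -0.77, -0.56, 1.34 and 0.99 in α-Gal A(-/0) replicates 1 to 4. In wildtype replicates 1 to 4 it was 0.75, -0.82, -1.11 and 0.18.

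Of the 55 receptor genes, 50 had at least 1 tested probe, with 65 tested probes in all. Hrh2, Avpr1a, Hcrtr2, Galr1 and Galr2 were not tested because none of their probes passed the background filter. Of the 65 probes, 2 passed an adjusted p of 0.05, those of Npsr1 and of Sstr1 upstream, which is 3.08% of them beside 0.885% of all tested probes. Both were lower in α-Gal A(-/0) mice, a call that 0.579% of all tested probes received in that direction. At the thresholds of the study, p up to 0.01 without adjustment together with a change of 1.2-fold or more, 4 receptor probes passed with the p of limma (6.15%, beside 3.46% of all), those of Npsr1, Sstr1, Adora2b and Adora3. With the p of the methods' t-test, which the study used, 3 passed (4.62%, beside 1.83% of all), and Adora3 did not. These shares are descriptions only, because the list was built around Npsr1. The study named Npsr1 and Adora2b from these same arrays. The upstream Sstr1 probe passed the filter only through the wildtype mice. At an unadjusted limma p under 0.05 there were 8 receptor probes (12.3%, beside 12% of all tested probes). The genotypes did not overlap in 7 receptor probes (10.8%, beside 7.95% of all), of which 5 were lower and 2 higher in α-Gal A(-/0) mice. With the brightest tested probe per gene, 25 receptor genes had a higher and 25 a lower mean in α-Gal A(-/0) mice, with a median log2 difference of -0.0032 beside -0.0219 over 23639 genes. Within 0.2 of no difference lay 34 of the 50 receptor genes (68%, beside 78.8% of all genes).

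**Figure D1:**
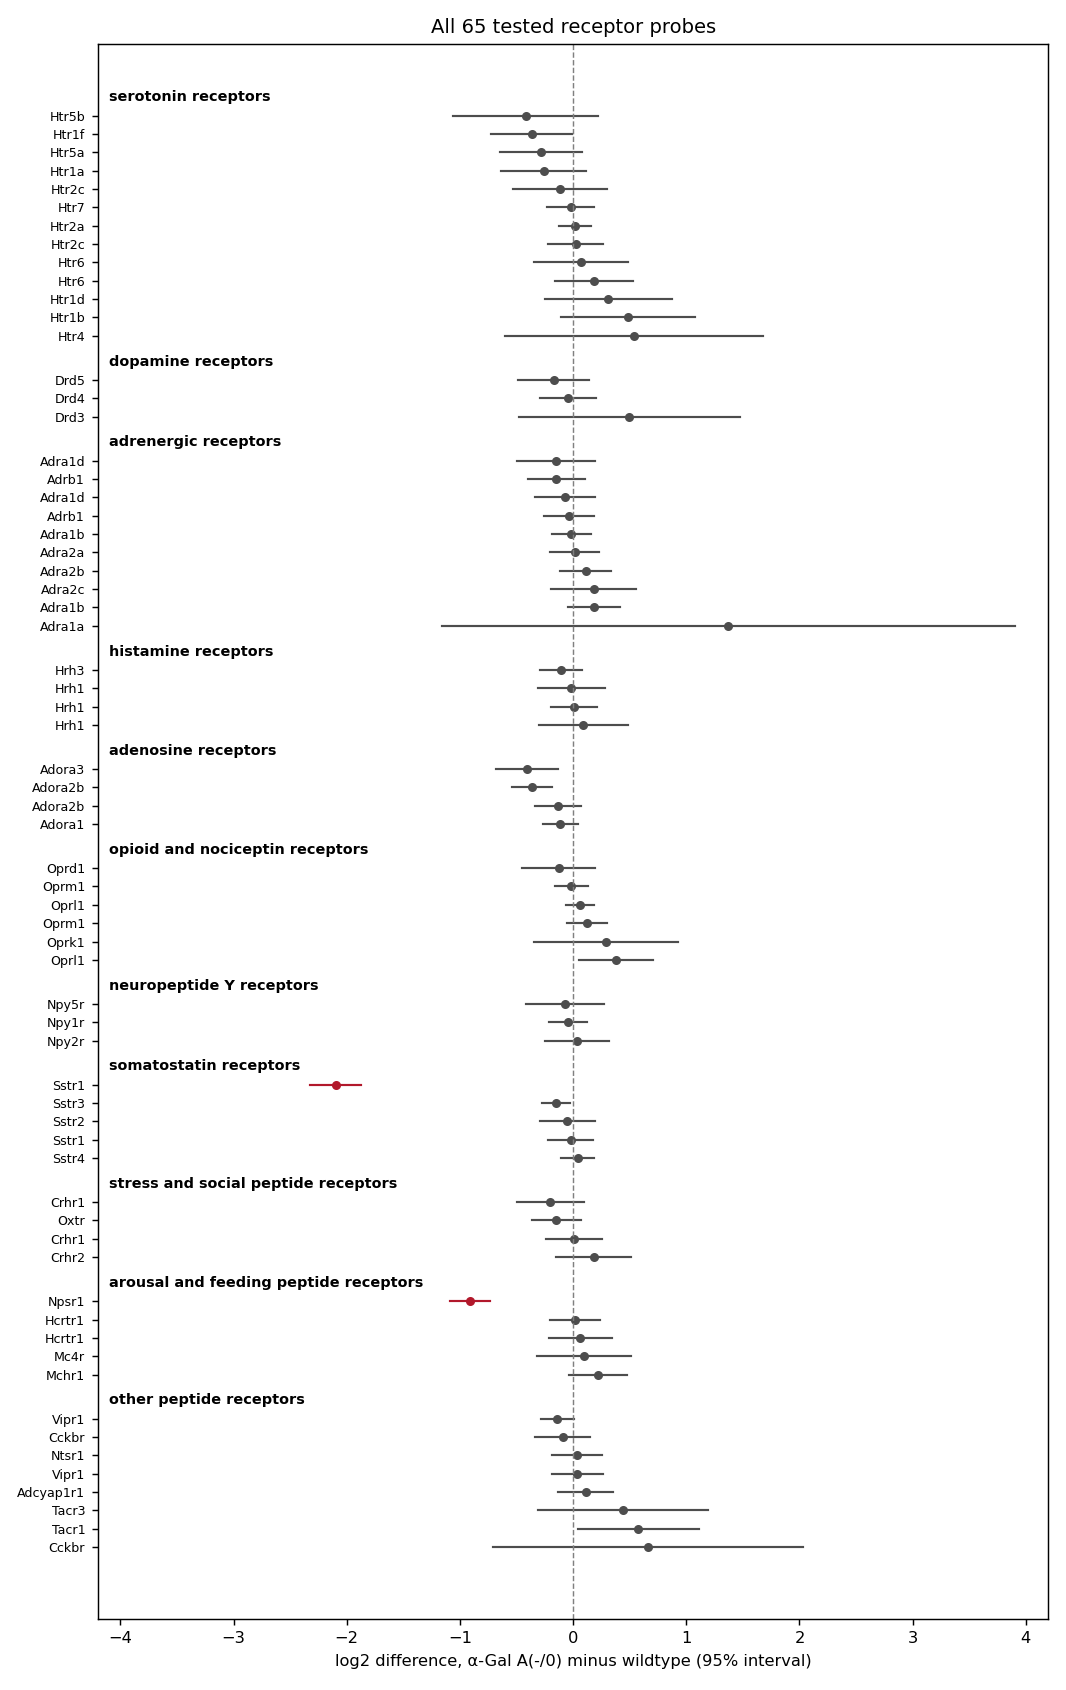
Log2 difference (α-Gal A(-/0) minus wildtype, x axis) of each of the 65 tested probes by receptor class, with 4 mice per genotype. Points are fitted differences, bars are 95% intervals from limma, and red marks an adjusted p under 0.05. Only Sstr1 upstream (-2.10) and Npsr1 (-0.91) are red, and Adra1a has the widest interval (-1.16 to 3.90).

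Npsr1, which couples to Gq and Gs, was 1.88-fold lower in α-Gal A(-/0) mice. Its only probe read 6.13, 5.98, 5.84 and 6.06 in α-Gal A(-/0) replicates 1 to 4 and 6.93, 6.84, 7.03 and 6.87 in wildtype replicates 1 to 4, and was well above background on all 8 arrays. Every α-Gal A(-/0) mouse was below every wildtype mouse. The log2 difference was -0.91 (SE 0.08, 95% interval -1.09 to -0.73, n = 4 per genotype, limma adjusted p = 0.00104). The 8 arrays lay on 1 slide in 2 rows of 4, with 3 wildtype arrays and 1 α-Gal A(-/0) array in row 1 and the reverse in row 2, and the difference was -0.80 within row 1 and -0.90 within row 2. After normexp background correction, in which an offset of 50 was added to every signal, it shrank to -0.50 (1.41-fold) and still passed (adjusted p = 0.00132). The part of the offset in this smaller value was not tested. In RNA of whole tissue, fewer cells of a type and less RNA per cell cannot be told apart. Both probes of Nps, the gene of its ligand, were below the filter.

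Sstr1, a Gi-coupled somatostatin receptor, differed by probe. Its upstream probe read 4.74, 4.76, 4.94 and 4.90 in the α-Gal A(-/0) mice and 7.18, 6.88, 6.92 and 6.76 in the wildtype mice. This is 4.28-fold lower in α-Gal A(-/0) mice (log2 difference -2.10, SE 0.10, 95% interval -2.32 to -1.87, n = 4 per genotype, limma adjusted p = 4.17e-05), with no overlap between genotypes. The probe was well above background on 4 of 4 wildtype and 3 of 4 α-Gal A(-/0) arrays, so that it entered the test through the wildtype mice, and on α-Gal A(-/0) replicate 2 its 4.76 lay under the lowest signal well above background there, 5.39. Without that array the difference was -2.07. Its difference was -2.25 within row 1 of the slide and -1.89 within row 2. It was -1.05 (2.08-fold) after normexp background correction with the same offset, which still passed (adjusted p = 3.66e-05). The downstream probe, 2383 bases further along, read 11.04, 11.14, 11.14 and 11.36 in the α-Gal A(-/0) mice and 11.29, 11.03, 11.23 and 11.23 in the wildtype mice. Here the genotypes overlapped, with a log2 difference of -0.02 (95% interval -0.22 to 0.18, limma adjusted p = 0.947). Whether the colonies carry the same sequence at the stretches these probes bind was not tested.

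Set against each other within each array, the upstream minus the downstream Sstr1 probe came to -6.34 ± 0.11 (SD, n = 4) in α-Gal A(-/0) and -4.26 ± 0.16 (SD, n = 4) in wildtype mice. This is given as a description, since the pair was chosen after its values were seen. Across the 14 receptor genes with 2 or more tested probes, the differences of a gene's probes lay more than 0.5 apart in 2 genes, Sstr1 and Cckbr, and in the other 12 they lay at most 0.32 apart. The Cckbr gap came from 1 array, α-Gal A(-/0) replicate 2, without which the differences of its probes were -0.09 and -0.02.

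**Figure D2:**
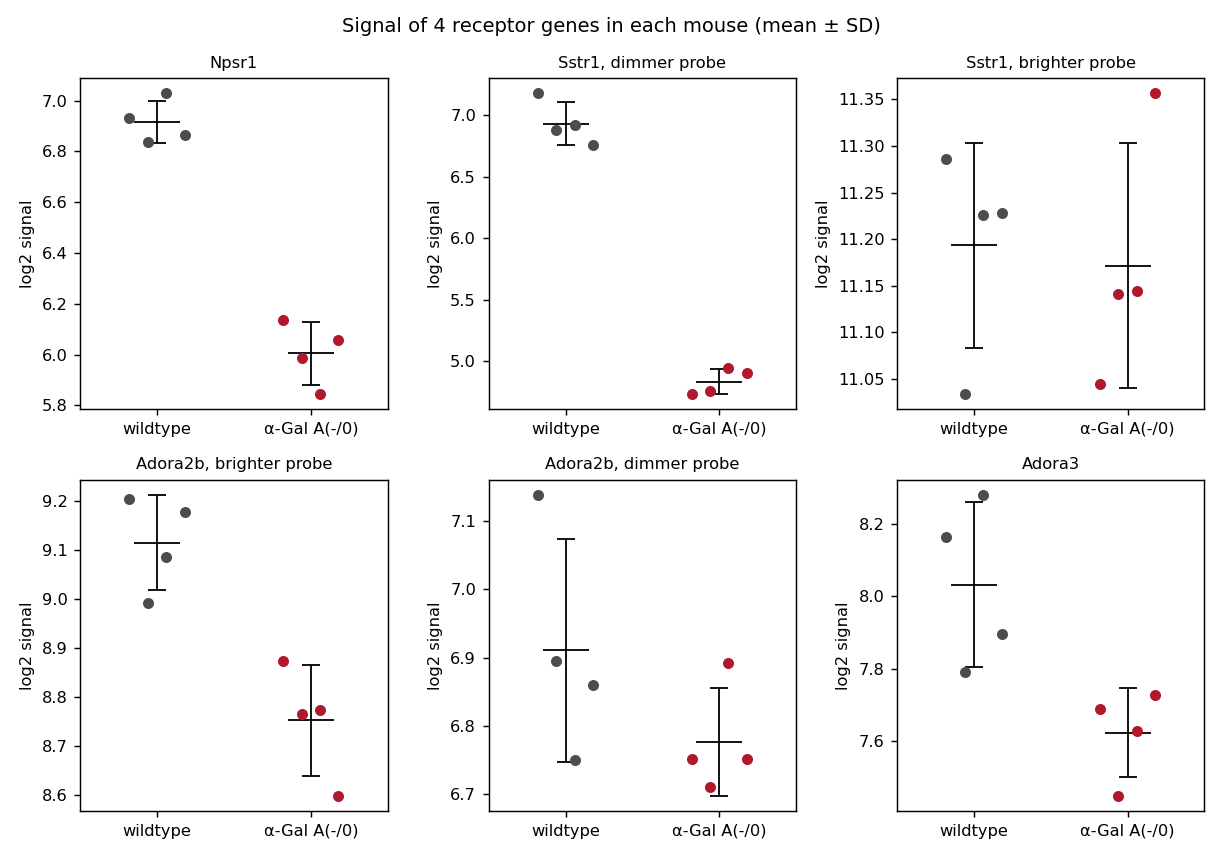
Log2 signal (y axis, with its own range in each panel) of Npsr1, the upstream (dimmer) and downstream (brighter) Sstr1 probes, both Adora2b probes and the tested Adora3 probe. Each point is 1 mouse, the long line is the mean and the bars are the SD of 4 mice. The genotypes are apart for Npsr1, the dimmer Sstr1 probe, the brighter Adora2b probe and Adora3, and overlap for the brighter Sstr1 and the dimmer Adora2b probe.

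The other somatostatin receptors did not pass the adjusted test. Sstr3, found on neuronal primary cilia, read 12.36, 12.32, 12.40 and 12.48 in α-Gal A(-/0) mice and 12.53, 12.55, 12.53 and 12.57 in wildtype mice. These ranges did not overlap, but the log2 difference of -0.15 (SE 0.05) did not pass (limma adjusted p = 0.328, unadjusted p = 0.0224). Sstr2 and Sstr4 differed by -0.05 (95% interval -0.30 to 0.19) and 0.04 (95% interval -0.11 to 0.19). Sst, the gene of the ligand, differed by -0.09 (adjusted p = 0.701). Sstr5, a further receptor of the family outside the list, read 12.98 on average in α-Gal A(-/0) and 12.67 in wildtype mice (log2 difference 0.30, adjusted p = 0.396).

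The 3 adenosine receptor genes of the list had means below wildtype, and none passed the adjusted test. Adora2a, an adenosine receptor outside the list, went the other way (log2 difference 0.86, SE 0.67, limma adjusted p = 0.653). Adora2b, a Gs-coupled receptor that responds to high adenosine, was measured by 2 probes 1080 bases apart. The brighter one read 8.87, 8.77, 8.77 and 8.60 in α-Gal A(-/0) mice and 9.20, 8.99, 9.09 and 9.18 in wildtype mice. Every α-Gal A(-/0) value lay below every wildtype value, at a log2 difference of -0.36 (1.29-fold lower, SE 0.08, 95% interval -0.54 to -0.18, n = 4 per genotype, unadjusted p = 0.00159, limma adjusted p = 0.105). Within row 1 of the slide it was -0.22 and within row 2 -0.46. The dimmer probe, whose sequence is printed above, read 6.75, 6.71, 6.89 and 6.75 against 7.14, 6.90, 6.75 and 6.86, so that the genotypes overlapped (log2 difference -0.13, 95% interval -0.34 to 0.07, adjusted p = 0.598).

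Adora3, a Gi-coupled receptor found in microglia in the mouse brain, read 7.69, 7.45, 7.63 and 7.73 in α-Gal A(-/0) mice and 8.16, 7.79, 8.28 and 7.90 in wildtype mice. All 4 α-Gal A(-/0) values were the lower ones, with a log2 difference of -0.41 (SE 0.12, 95% interval -0.69 to -0.13, n = 4 per genotype, unadjusted p = 0.00881, limma adjusted p = 0.242). Within the slide rows it was -0.39 and -0.30. Another Adora3 probe was below the background filter. Microglia markers moved beside it: with the brightest probe per gene, 6 of 6 markers had lower means in α-Gal A(-/0) mice, and 1 of their 10 tested probes, of Csf1r, passed. At an unadjusted p under 0.05 were 7 of the 10 (70%, beside 12% of all), all lower, and 4 did not overlap (40%, beside 7.95% of all). Another Csf1r probe differed by 0.59 (adjusted p = 0.648), with α-Gal A(-/0) replicate 2 highest at 12.12. The mean deviation of the microglia list from the average of the 8 mice was -0.24 to -0.05 in α-Gal A(-/0) and 0.06 to 0.30 in wildtype mice. Astrocyte markers were also lower in 7 of 7 genes, at a mean deviation of -0.15 to 0.01 in α-Gal A(-/0) and 0.07 to 0.09 in wildtype mice, and excitatory neuron markers in 6 of 6, at -0.19 to 0.10 and 0.00 to 0.16, with 0 probes of either list past the adjusted test. At an unadjusted p under 0.05 were 4 of 13 astrocyte probes (30.8%) and 1 of 9 excitatory neuron probes (11.1%). The part of these markers in the Adora3 difference was not tested. Adora1, the widespread inhibitory adenosine receptor of neurons, had a mean of 13.47 ± 0.10 in α-Gal A(-/0) and 13.59 ± 0.07 in wildtype mice (SD, n = 4 each, log2 difference -0.11, adjusted p = 0.553).

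Of the 11 serotonin receptor genes, all were tested, and 0 of their 13 probes passed the adjusted test, with 1 below an unadjusted p of 0.05. That probe was of Htr1f, a Gi-coupled receptor, at 8.58, 8.30, 8.42 and 7.91 in α-Gal A(-/0) mice and 8.86, 8.52, 8.83 and 8.47 in wildtype mice. The ranges overlapped (log2 difference -0.37, SE 0.16, unadjusted p = 0.0473, limma adjusted p = 0.411). Htr2a, the Gq-coupled receptor of deep-layer pyramidal cells, was the most even of them, at 9.35 to 9.49 in α-Gal A(-/0) and 9.31 to 9.47 in wildtype mice, with a 95% interval of the difference from -0.13 to 0.16. Htr2c, brightest of the class, differed by 0.02 (95% interval -0.22 to 0.27) with this probe and by -0.11 with a dimmer one. Htr7, Htr6 and Htr1a, of which the first pair are Gs-coupled and the last is inhibitory, differed by between -0.26 and 0.18. Htr5a and Htr5b, each well above background on 3 of 4 α-Gal A(-/0) arrays, differed by -0.28 (adjusted p = 0.521) and -0.42 (adjusted p = 0.595). Both Htr6 probes were likewise well above background on 3 of 4 α-Gal A(-/0) arrays.

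The remaining serotonin receptors, Htr1b, Htr1d and Htr4, varied widely within genotypes. Htr1b, a presynaptic inhibitory receptor, read 8.65, 8.60, 8.60 and 7.51 in α-Gal A(-/0) mice and 7.53, 7.94, 8.03 and 7.93 in wildtype mice. In this gene α-Gal A(-/0) replicates 1 to 3 stood above all wildtype mice while replicate 4 was below them all. The log2 difference of 0.48 (SE 0.26, limma adjusted p = 0.505) rose to 0.76 and passed without α-Gal A(-/0) replicate 4 (adjusted p = 0.0491), and was 0.38 without wildtype replicate 1 (adjusted p = 0.788). Htr4, Gs-coupled, read 7.73, 7.80, 7.41 and 5.81 in α-Gal A(-/0) mice and 5.75, 7.38, 6.68 and 6.79 in wildtype mice. Again α-Gal A(-/0) replicate 4 and wildtype replicate 1 were the lowest (log2 difference 0.54, SE 0.50, adjusted p = 0.704).

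The same pair of mice was lowest for other receptors that are known from the striatum. Drd3, a Gi-coupled dopamine receptor of the ventral striatum, read 6.38, 6.54, 6.56 and 5.03 in α-Gal A(-/0) mice and 4.64, 5.93, 5.93 and 6.01 in wildtype mice. Oprk1, the kappa opioid receptor that binds dynorphin, read 9.09, 9.05, 9.04 and 8.03 in α-Gal A(-/0) mice and 7.97, 8.77, 8.73 and 8.57 in wildtype mice. Tacr1, the receptor of substance P, read 8.05, 7.80, 7.86 and 7.13 in α-Gal A(-/0) mice and 6.65, 7.49, 7.18 and 7.22 in wildtype mice. In each of these the 3 highest mice were α-Gal A(-/0) replicates 1 to 3. None passed the adjusted test: the log2 difference was 0.50 for Drd3 (adjusted p = 0.679), 0.29 for Oprk1 (adjusted p = 0.712) and 0.58 for Tacr1 (unadjusted p = 0.0378, adjusted p = 0.386). Without wildtype replicate 1 these differences fell to 0.17, 0.11 and 0.41, and without α-Gal A(-/0) replicate 4 they were 0.86, 0.55 and 0.77.

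The 16 striatum markers, among them Drd2 and Adora2a, had the same mice at both ends. Their mean deviation from the average of the 8 mice was 0.67, 0.84, 0.40 and -0.74 in α-Gal A(-/0) replicates 1 to 4 and -1.02, 0.26, -0.19 and -0.22 in wildtype replicates 1 to 4. All 16 were tested, 15 had a higher mean in α-Gal A(-/0) mice, and 0 of their 24 probes passed the adjusted test, with 2 below an unadjusted p of 0.05. Wildtype replicate 1 and α-Gal A(-/0) replicate 4 were the lowest 2 mice in 14 of the 65 receptor probes (21.5%, beside 3.61% of all tested probes) and the highest 2 in 6 (9.23%, beside 5.52%), a count made after the values were seen. Besides those described, the 14 included Htr2c, Htr6, Adra2b, Adra2c, Hrh1, Mc4r and Tacr3, and the 6 were probes of Adra1d, Crhr1, Hcrtr1 and the downstream probe of Sstr1. The mean deviation of choroid plexus markers, of which 5 of 6 were tested, was also lowest in this pair, at -0.41 in wildtype replicate 1 and -0.33 in α-Gal A(-/0) replicate 4. It was highest in α-Gal A(-/0) replicates 1 to 3, at 0.14, 0.32 and 0.27. Among them only Clic6 had that pair as its lowest 2 mice, at 7.50 and 7.70 beside 8.69 to 10.02 in the other 6. On its brighter probe Kcnj13 was higher in that pair (8.93 and 8.85) than in α-Gal A(-/0) replicates 1 to 3 (8.52 to 8.64). Folr1 read 6.49 and 6.27 in the pair, within 6.12 to 6.65 over all 8 mice. Kl was lowest in wildtype replicate 1 and the brighter Otx2 probe in α-Gal A(-/0) replicate 4. Ttr, the defining gene of choroid plexus, was below the filter. The part of either marker list in these receptor values was not tested.

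**Figure D3:**
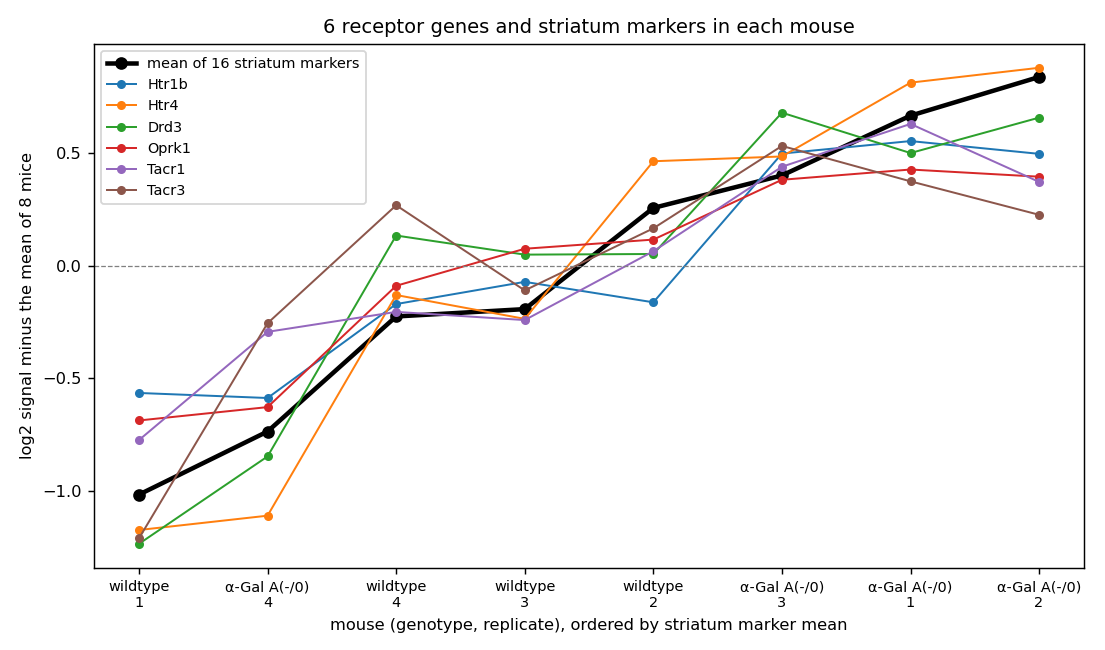
Log2 signal minus the mean of the 8 mice (y axis) of Htr1b, Htr4, Drd3, Oprk1, Tacr1 and Tacr3 in each mouse, with the mean of 16 striatum markers as the thick black line. Mice are ordered from left to right by the marker mean, from wildtype replicate 1 (-1.02) to α-Gal A(-/0) replicate 2 (0.84), and the 6 receptors are low in the 2 mice on the left and high in the 3 on the right. Tacr3 was well above background on only 3 of 4 α-Gal A(-/0) arrays.

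Apart from Drd3, the dopamine receptors were Drd4 (Gi-coupled) and Drd5 (Gs-coupled), and 0 of the 3 probes passed (lowest adjusted p = 0.656, 0 at an unadjusted p under 0.05). Drd5 had a mean of 6.70 ± 0.27 in α-Gal A(-/0) and 6.87 ± 0.13 in wildtype mice (SD, n = 4 each). Drd4 differed by -0.05 (95% interval -0.30 to 0.20).

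All 7 adrenergic receptor genes were tested, and 0 of 10 probes passed or were below an unadjusted p of 0.05. Adra1b, a Gq-coupled receptor of noradrenaline, read 11.07, 11.10, 11.09 and 11.50 in α-Gal A(-/0) mice and 11.03, 11.01, 11.03 and 10.94 in wildtype mice on its brighter probe. The genotypes did not overlap, though α-Gal A(-/0) replicate 4 alone stood far from the rest (log2 difference 0.19, SE 0.10, limma adjusted p = 0.507). On the dimmer probe of Adra1b they overlapped, with a difference of -0.02. Adra2a, the postsynaptic Gi-coupled receptor that is the target of guanfacine, had a difference of 0.01 (95% interval -0.20 to 0.23). For Adra2c, brightest of the class, the means were 12.49 ± 0.35 in α-Gal A(-/0) and 12.31 ± 0.13 in wildtype mice (SD, n = 4 each). Adra1d, Adra2b and Adrb1 differed by between -0.15 and 0.11.

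Adra1a, also Gq-coupled, had the largest positive difference of all receptor probes, 1.37, which came from 1 array. It read 5.45, 10.49, 5.44 and 5.18 in α-Gal A(-/0) mice and 5.19, 5.45, 5.11 and 5.32 in wildtype mice. Without α-Gal A(-/0) replicate 2 the log2 difference was 0.09 (adjusted p = 0.822). The same array stood apart for a probe of Cckbr, the cortical cholecystokinin receptor, at 7.74, 10.67, 7.97 and 8.12 in α-Gal A(-/0) mice and 8.15, 7.66, 8.14 and 7.91 in wildtype mice. The brighter Cckbr probe read 12.62 on that array and 12.41 to 12.91 over all 8. An untested probe of Ntsr1, a neurotensin receptor, read 10.69 on it and 3.84 to 5.11 on the other 7 arrays, whereas the tested Ntsr1 probe read 9.64 on it and 9.63 to 10.01 on the others. Over all tested probes, α-Gal A(-/0) replicate 2 was more than 2 above the other 7 arrays in 262 probes (0.763%), while each of the other arrays was so in 0 to 4.

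**Figure D4:**
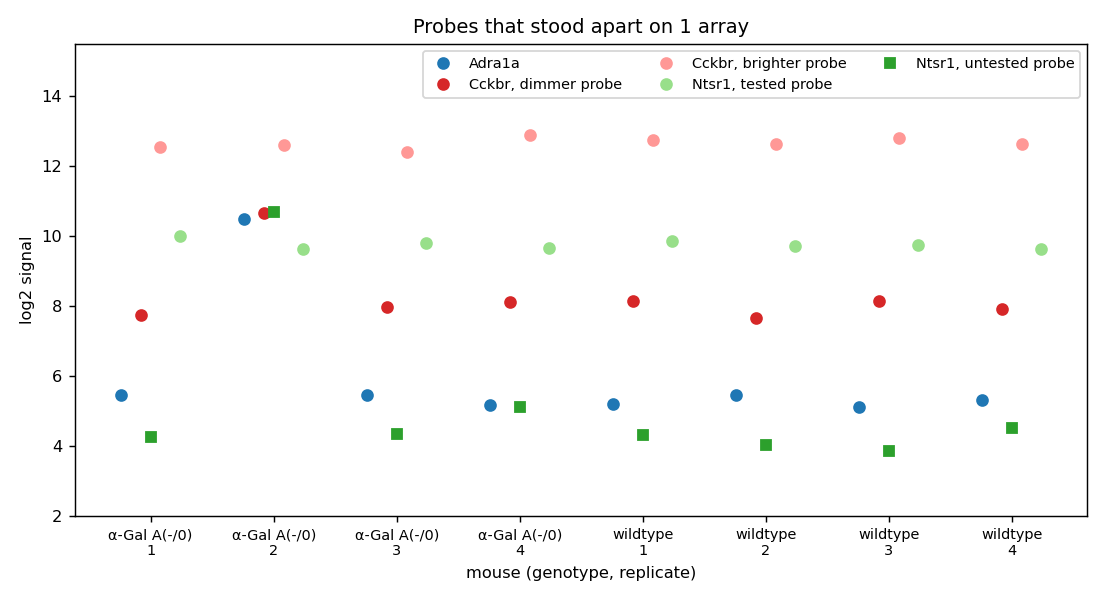
Log2 signal (y axis) of Adra1a, both Cckbr probes and both Ntsr1 probes in each mouse (x axis, by genotype and replicate). Adra1a (10.49), the dimmer Cckbr probe (10.67) and the untested Ntsr1 probe (10.69) are high in α-Gal A(-/0) replicate 2 alone, and the brighter Cckbr probe and the tested Ntsr1 probe are level across the 8 mice.

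Histamine receptors were represented by Hrh1, Gq-coupled, and Hrh3, the presynaptic Gi-coupled receptor, while the probe of Hrh2 was below the filter, and 0 of 4 probes passed or were below an unadjusted p of 0.05. Hrh3 had means of 13.92 ± 0.04 in α-Gal A(-/0) and 14.02 ± 0.15 in wildtype mice (SD, n = 4 each, log2 difference -0.11, adjusted p = 0.65). The 3 probes of Hrh1 differed by between -0.02 and 0.09.

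Among the opioid receptors and the nociceptin receptor Oprl1, all Gi-coupled, 0 of 6 probes passed and 1 was below an unadjusted p of 0.05. This was the dimmer probe of Oprl1, at 7.42, 7.33, 7.39 and 7.79 in α-Gal A(-/0) mice and 7.07, 6.78, 7.25 and 7.31 in wildtype mice. Every α-Gal A(-/0) value lay above every wildtype value, narrowly (log2 difference 0.38, SE 0.14, unadjusted p = 0.0275, limma adjusted p = 0.351). On its brighter probe the difference was 0.06 (95% interval -0.07 to 0.19). Oprd1 differed by -0.13 (adjusted p = 0.757). Oprm1 has 4 probes, of which 2 were tested. The brightest, at 15.28 to 15.44 in α-Gal A(-/0) and 15.34 to 15.47 in wildtype mice, is the one with 13 CA repeats shown above, and it lies 207822 bases from the nearest of the other Oprm1 probes, and whether it reports Oprm1 transcripts was not tested. The other tested probe, at 5.78 to 6.08 in α-Gal A(-/0) and 5.76 to 5.86 in wildtype mice, differed by 0.12 (adjusted p = 0.561).

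Neuropeptide Y receptors, Gi-coupled, differed little between genotypes, and 0 of their 3 tested probes passed or were below an unadjusted p of 0.05. Npy1r, the postsynaptic receptor, had means of 11.46 ± 0.07 in α-Gal A(-/0) and 11.50 ± 0.12 in wildtype mice (SD, n = 4 each), with a 95% interval of the difference from -0.22 to 0.12. Npy2r, the presynaptic receptor, differed by 0.03, and Npy5r by -0.07. The ligand gene Npy had a mean of 12.55 in α-Gal A(-/0) and 12.76 in wildtype mice (log2 difference -0.21, unadjusted p = 0.0538, adjusted p = 0.425).

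Receptors of stress and social peptides had 0 of 4 probes past the adjusted test or an unadjusted p of 0.05. Crhr1, the main cortical receptor of corticotropin-releasing hormone, differed by 0.01 on its brighter and -0.20 on its dimmer probe (95% interval -0.50 to 0.10). Crhr2, which binds urocortins, differed by 0.18 (adjusted p = 0.66). Oxtr, the oxytocin receptor, had means of 8.95 ± 0.14 in α-Gal A(-/0) and 9.10 ± 0.13 in wildtype mice (SD, n = 4 each, log2 difference -0.15, adjusted p = 0.575). Avpr1a was below the filter.

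Beside Npsr1, the receptors of arousal and feeding peptides comprised Hcrtr1, Mchr1 and Mc4r, whereas Hcrtr2, Galr1 and Galr2 were below the filter. Hcrtr1, the orexin receptor that prefers orexin A, differed by 0.06 and 0.02 on 2 probes that share 52 bases and thus are no independent measures. Its ligand gene Hcrt had the lowest adjusted p of all pathway probes, at means of 6.48 in α-Gal A(-/0) and 6.77 in wildtype mice (log2 difference -0.29, unadjusted p = 0.00159, adjusted p = 0.105). Another Hcrt probe was below the background filter. Mchr1, the receptor of melanin-concentrating hormone, differed by 0.22 (95% interval -0.04 to 0.48, adjusted p = 0.491), and Mc4r, a melanocortin receptor, by 0.10 (adjusted p = 0.871).

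Of the other peptide receptors, 0 of 8 probes passed, and only Tacr1 was below an unadjusted p of 0.05. Vipr1, the Gs-coupled receptor of vasoactive intestinal peptide, had means of 12.82 ± 0.08 in α-Gal A(-/0) and 12.96 ± 0.07 in wildtype mice (SD, n = 4 each, log2 difference -0.14, adjusted p = 0.436), and a dimmer Vipr1 probe differed by 0.04. Adcyap1r1, the PACAP receptor, differed by 0.11 and the tested probe of Ntsr1 by 0.03. Tacr3, the neurokinin B receptor, differed by 0.44 (SE 0.33, adjusted p = 0.637), with wildtype replicate 1 lowest at 4.09. Its probe was well above background on 3 of 4 α-Gal A(-/0) and 4 of 4 wildtype arrays, so that it entered the test through the wildtype mice.

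The genes around these receptors were taken from 5 lists: peptide ligands, monoamine enzymes and transporters, adenosine enzymes and transporters, G protein signaling genes, and further receptors of the same families. Together they held 85 genes on the array, of which 73 were tested, with 91 probes, and 0 probes passed the adjusted limma test, as also in each of the 16 alternative analyses. At an unadjusted p under 0.05 there were 10 (11%, beside 12% of all tested probes), 7 lower and 3 higher in α-Gal A(-/0) mice. Peptide ligands gave 2 of these in 20 probes, Hcrt and Ucn, the gene of urocortin (log2 difference 0.38, adjusted p = 0.305). Monoamine genes gave 0 of 12 and adenosine genes 0 of 7. The difference of Th, which encodes the first enzyme of dopamine synthesis, was 0.02 but imprecise (SE 0.40). G protein signaling genes gave 3 of 34, all of them probes of Plcb4, a phospholipase C downstream of Gq, at differences of -0.33, -0.25 and -0.29 (lowest adjusted p = 0.233), while the last of its 4 probes differed by -0.22.

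The further receptors gave 5 of 18 probes at an unadjusted p under 0.05 (27.8%, beside 12% of all tested probes), and none passed the adjusted test. At the thresholds of the study, with the p of limma, 2 passed, Nmbr and Mc3r (11.1%, beside 3.46% of all). The genotypes did not overlap in 3 probes (16.7%, beside 7.95% of all), those of Nmbr, Mc3r and Trhr. Trhr differed by 0.60 (adjusted p = 0.507), with α-Gal A(-/0) replicate 2 highest at 10.00. Nmbr, the neuromedin B receptor, had means of 7.41 in α-Gal A(-/0) and 7.98 in wildtype mice (log2 difference -0.56, adjusted p = 0.193). Grpr, the gastrin-releasing peptide receptor, differed by -0.45 (adjusted p = 0.357). Npffr1 was well above background on 0 of 4 α-Gal A(-/0) and 4 of 4 wildtype arrays, so that it entered the test only through the wildtype mice. Since its wildtype mean (4.46) did not exceed the background limit of the α-Gal A(-/0) arrays (mean 4.48), no fold is given. Mc3r, a melanocortin receptor, had means of 7.43 in α-Gal A(-/0) and 6.93 in wildtype mice (log2 difference 0.51, adjusted p = 0.206). The last of the 5 probes at an unadjusted p under 0.05 was that of Sstr5. Drd1a, Drd2 and Adora2a, which also stand among the striatum markers, differed by 0.53, 0.77 and 0.86 (adjusted p = 0.648, 0.509 and 0.653).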

How the data were processed

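Per the file headers, the authors read each array with Agilent Feature Extraction 10.7.3.1, as also named in the submitters' processing notes, and the deposited processed intensity of a spot is corrected for spatial trends and not normalized between arrays. The deposited log2 value table of the series was not used, because its columns do not follow their sample names. Intensities were averaged over the spots of a probe, put on the log2 scale and quantile normalized between the 8 arrays. Left out were 81 probes for which any array had an uneven spot. Intensity, background and uneven-spot flags are those deposited per spot. Genotypes were taken from the labels and compared by limma 3.58.1 (lmFit, eBayes; R 4.3.3), two-sided, with Benjamini-Hochberg adjustment over 34341 tested probes. These steps were tested on simulated data. Tables and figures were made with pandas 2.3.3, numpy 2.4.6 and matplotlib 3.10.9 in Python 3.11.15, and the trend and robust setting used statmod 1.5.0. Member genes, receptor classes, pathway and marker lists and tests were chosen with earlier results of these data known. Named with full values were Npsr1, Adora2b, probes past the adjusted test or the study's thresholds (with limma's p), probes whose genotypes do not overlap, and in each class the probe of lowest p and the brightest. Each probe was kept apart, and of 1 gene the brightest tested probe by the mean of all arrays stood for it in medians. Alternatives were a 75th percentile shift, normexp (offset 50), testing without the signal filter, a filter on all 8 arrays, the methods' t-test, a trended and robust variance, a replicate block, each array left out, and the slide row as a block, which was added after the values were seen. Precision is limited by having 4 arrays per genotype, and p-values measure the spread between mice of 1 colony each.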

Additional observations from a re-analysis of the deposited data

Results flagged for a closer look

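In 15 of the 130 sets of 4 mice formed by 65 receptor probes and 2 genotypes, 1 mouse lay far from the other 3, the gap to its neighbour exceeding Dixon's 95% critical value for 4 values. Chance gives this in about 1 of 20 sets of independent, normally distributed values. The sets here share the same 8 mice and are not independent, and the rate over all tested probes was not computed. α-Gal A(-/0) replicate 4 was the mouse in 5 of them, low for Htr1b (7.51), Drd3 (5.03), Oprk1 (8.03) and the repeat probe of Oprm1 (15.28) and high for Adra1b (11.50). Wildtype replicate 1 was low for Htr1d (5.06) and Drd3 (4.64), and high for Adrb1 (7.63) and Hcrtr1 (8.92). α-Gal A(-/0) replicate 2 was high for Adra1a (10.49) and Cckbr (10.67) and low for Drd5 (6.30). Wildtype replicate 4 was high for Htr5b (6.16) and low for the dimmer Adra1b probe (8.79). α-Gal A(-/0) replicate 1 was low for Sstr4 (7.41), in a set that spans only 7.41 to 7.47.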

How the results depend on the processing

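Npsr1 passed in all 16 alternatives (log2 difference -0.95 to -0.50, adjusted p = 0.000657 to 0.0369), and the upstream probe of Sstr1 in all 15 that could test it (-2.16 to -1.05, adjusted p = 3.68e-06 to 0.0107). With a replicate block their adjusted p was 0.0369 and 0.00658. The replicate numbers do not pair the mice: the correlations of same-numbered residuals were -0.089, 0.14, 0.015 and 0.148. Adora2b kept its direction and did not pass in any of 16 (-0.40 to -0.31, adjusted p = 0.0675 to 0.344), nor did Adora3 (-0.49 to -0.33, adjusted p = 0.159 to 0.576). The count of receptor probes past the adjusted test was 2 in the main analysis and 1 with the filter on all 8 arrays, where the upstream probe of Sstr1 was not tested, and 2 to 3 with each mouse left out. Over all probes it was 304, with 89 by the methods' t-test, 153 with the replicate block, 149 with the slide row as a block, and 186 to 264 with each mouse left out, moving by over 1.5 times without wildtype replicate 1 (202), 3 (186) or 4 (202). The third receptor probe without α-Gal A(-/0) replicate 4 was that of Htr1b. Neither block changed a call among the receptor or pathway probes. The dimmer Cckbr probe went from 0.66 to -0.02 without α-Gal A(-/0) replicate 2. Of the probes named in each class, Htr2c went to -0.0165 with the 75th percentile shift and -0.0252 with the slide row, Oprm1 to 0.0174 with the slide row, Crhr1 to -0.0321 with the 75th percentile shift and -0.0094 with the slide row, and Hcrtr1 to -0.0045 with normexp, all from differences that round to between -0.02 and 0.02. With each mouse left out they ranged from -0.0354 to 0.105 (Htr2c), -0.0396 to 0.0217 (Oprm1), -0.0834 to 0.0203 (downstream Sstr1), -0.0758 to 0.0713 (Crhr1) and -0.0393 to 0.0881 (Hcrtr1). The cause was not tested.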
